A study of Mus musculus with 8 samples.

Results

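The microRNAs described here come from 10 hairpins at the proximal end of the imprinted Dlk1-Dio3 domain of mouse chromosome 12, near the genes Meg3 and Rtl1 and upstream of the large miR-379 cluster. They were chosen by name: every microRNA feature that carries the name of mmu-miR-127, mmu-miR-136, mmu-miR-337, mmu-miR-431, mmu-miR-433, mmu-miR-434, mmu-miR-540, mmu-miR-665, mmu-miR-673 or mmu-miR-770, on either arm (mmu, for mouse, is left out below). That gave 19 of the 813 microRNA features and of the 2403 small RNA features in the table. Both arms were listed for 9 hairpins, and miR-665 was listed by its 3p arm. The hairpins were put forward with a higher level of the whole domain in KO than in WT cells already known. Differences between genotypes are therefore given as a description, and nothing is supported with them.

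Small RNA was sequenced from immortalized skin fibroblasts of mice with the genotype mir210lox/lox, titled KO, and of wild-type mice (WT), both C57BL/6. Cells were kept for 24 h in hypoxia (1% O2) or normoxia (21% O2), which gave KO hypoxia, KO normoxia, WT hypoxia and WT normoxia, with 2 libraries each, numbered 1 and 2. All groups share immortalization, and the labels name neither the deleting Cre nor how many mice, clones or cultures stand behind a group. P-values therefore measure only the spread between these libraries, which may be technical.

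The Dlk1-Dio3 domain is imprinted: protein genes such as Dlk1 and Rtl1 are expressed from the paternal chromosome, and the noncoding RNA Meg3 with the microRNAs and small nucleolar RNAs downstream of it from the maternal chromosome. Rtl1 encodes a retrotransposon-derived protein needed in the placenta. The microRNAs on the opposite strand of Rtl1 match its mRNA without a mismatch and can direct its cleavage, as is known from mouse. MicroRNAs of the domain are abundant in embryo, placenta and brain and are found in mesenchymal cells. A microRNA reads its targets mainly through its seed, so the seed says which messages it can recognise.

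The mature sequences of the 11 features with a mean of at least 50 normalized counts are shown because the results rest on them. They are RefSeq's (GRCm38.p6, all on the plus strand of chromosome 12), 5′ to 3′, with the seed, bases 2 to 8, in capitals.
miR-127-3p: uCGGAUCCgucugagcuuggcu
miR-127-5p: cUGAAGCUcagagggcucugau
miR-337-3p: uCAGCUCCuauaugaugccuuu
miR-337-5p: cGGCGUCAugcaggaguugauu
miR-434-3p: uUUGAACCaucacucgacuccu
miR-434-5p: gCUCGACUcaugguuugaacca
miR-540-5p: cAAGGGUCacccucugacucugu
miR-433-3p: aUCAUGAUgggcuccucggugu
miR-665-3p: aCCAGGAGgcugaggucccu
miR-431-5p: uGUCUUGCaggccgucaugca
miR-136-5p: aCUCCAUUuguuuugaugaugg
All 19 features matched a RefSeq mature sequence, and they carry 19 distinct seeds, so the hairpins do not form a seed family. Against all RefSeq mouse microRNAs, 2 of the seeds recur, that of miR-540-3p in miR-6915-5p and that of miR-673-5p in miR-6985-3p, and neither of those was listed in the table. The longest run shared by a pair of members joins the arms of miR-431 (10 bases, gucuugcagg), followed by 9 bases shared by the arms of miR-434 (uuugaacca) and 9 shared by miR-337-5p and miR-431-5p (cgucaugca). No pair is close enough to be near-identical copies.

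The table lists a sequence window of 22 to 25 bases for each of the 19 features. Of the 19 windows, 17 are the RefSeq mature sequence plus 1 base on each side. The exceptions are the arms of miR-337. The window of miR-337-5p starts 4 bases before the start of the RefSeq mature sequence and stops 3 bases before its end. That of miR-337-3p starts 2 bases before the start of its mature sequence and stops 1 base before the end. How this shift touches the counts of miR-337 was not tested.

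By place the hairpins fall into 3 sets within 31.7 kb (GRCm38.p6, chr12:109563692-109595388). Mir770 lies inside the Meg3 gene (chr12:109541001-109571726), in an exon of 1 of its 11 annotated transcripts. Mir673 starts 264 bases after the Meg3 end, and Mir337, Mir540 and Mir665 follow 14063 to 14588 bases after it, before the Rtl1 gene model. Mir431, Mir433, Mir127, Mir434 and Mir136 lie on the strand opposite to Rtl1 (chr12:109589193-109600330, minus strand), all within its coding sequence. The reverse complement of every one of their 10 arms was found in the coding sequence of Rtl1, which is 5232 bases long. No arm of the other 5 hairpins matched the Rtl1 transcript in this way. The 5 sites of the more abundant arms are shown because they are the fully complementary stretches of the Rtl1 message, 5′ to 3′, with the bases that pair with the seed in capitals.
Rtl1 site of miR-136-5p, coding bases 52 to 73: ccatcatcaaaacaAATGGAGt
Rtl1 site of miR-434-5p, coding bases 855 to 876: tggttcaaaccatgAGTCGAGc
Rtl1 site of miR-127-3p, coding bases 2495 to 2516: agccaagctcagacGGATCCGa
Rtl1 site of miR-433-3p, coding bases 3602 to 3623: acaccgaggagcccATCATGAt
Rtl1 site of miR-431-5p, coding bases 4925 to 4945: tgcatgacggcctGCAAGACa
The table holds small RNAs, so the Rtl1 message itself was not analysed here. The sites run along the coding sequence from near its start to near its end.

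Values are the authors' normalized read counts. A library's total ran from 8618630 to 12167438, microRNAs took 73.0% to 82.0% of it, and ribosomal RNA 1.69% to 5.76%, with the 5.76% in KO hypoxia number 1. miR-210-3p, the product of the targeted gene, held 10 to 32 in the 4 KO libraries and 4786 to 39011 in the 4 WT libraries, so the genotype titles hold in all 8. The 14 features of the fibroblast and mesenchymal list summed to 3435764 to 5044579 in KO and 4246074 to 5612740 in WT libraries. Marker microRNAs of other cell types were far lower: epithelial 95 to 281 in KO and 132 to 245 in WT, haematopoietic 841 to 2245 and 1579 to 3078, endothelial 102 to 145 and 143 to 191, neural or melanocyte 575 to 956 and 829 to 1211. The muscle list summed to 121 to 238 in KO libraries and to 131 or more in WT libraries, each below the neural sum of its library. No listed marker with an entry in the data was at 0 in all libraries, and a marker without an entry was not counted. The sums of every list overlapped between genotypes, and the part of these markers in the results was not tested. How specific a listed microRNA is to its cell type was not tested either. In RNA from a whole culture, fewer cells that express a microRNA and less of it per cell cannot be told apart.

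The 19 features together made up a small part of each library that was larger in the KO libraries. Their sum was 19945 and 26179 in KO hypoxia, 18263 and 22553 in KO normoxia, 6122 and 16312 in WT hypoxia, and 7230 and 13079 in WT normoxia (numbers 1 and 2 in this order, here and below). As a share, that ran from 0.207% to 0.235% of a KO library and from 0.0617% to 0.134% of a WT library. The highest was 0.235% in KO hypoxia number 2 (95% exact binomial interval 0.232% to 0.238%) and the lowest 0.0617% in WT hypoxia number 1 (0.0601% to 0.0632%). The intervals take normalized counts for reads, and cover no error but that of counting. The KO values lie within a narrow band, and the WT values split by library number.

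The most abundant member was miR-127-3p, from the hairpin opposite the middle of the Rtl1 coding sequence, ranked 65 among the 813 microRNAs. It held 9629 and 14275 in KO hypoxia, 9133 and 12530 in KO normoxia, 2645 and 8899 in WT hypoxia, and 3666 and 6967 in WT normoxia. The lowest KO library, 9133, stands just above the highest WT library, 8899, and both number 1 WT libraries are far below the rest. The log2 difference of KO minus WT was 1.27 (SE 0.54) in hypoxia and 1.08 (SE 0.54) in normoxia, 2.42-fold and 2.12-fold. Its passenger arm miR-127-5p held 1056 and 997 in KO hypoxia, 964 and 1391 in KO normoxia, 311 and 757 in WT hypoxia, and 397 and 713 in WT normoxia. The genotypes do not overlap there either. miR-127-3p alone gave 43.2% to 55.6% of the members' sum in a library.

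**Figure D1:**
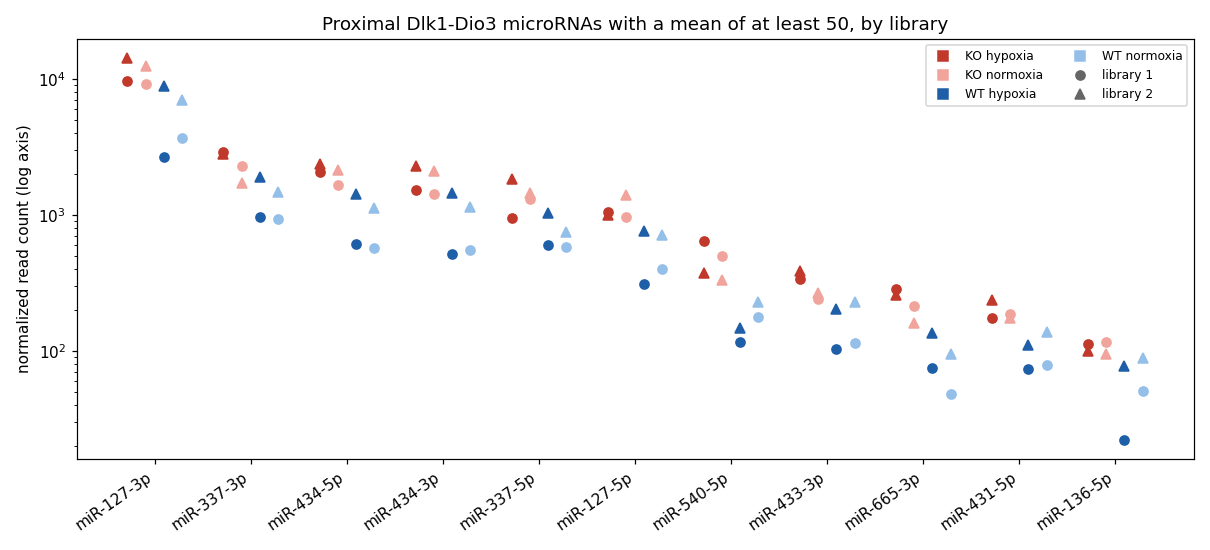
Normalized read counts (log axis) of the 11 members with a mean of at least 50, in order of their mean. Points are single libraries, circles for number 1 and triangles for number 2, with KO hypoxia, KO normoxia, WT hypoxia and WT normoxia from left to right; the circles of the WT groups are the lowest points of nearly every member, as for miR-127-3p at 2645 and 3666.

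The hairpin of miR-434 lies beside that of miR-127 on the strand opposite to Rtl1, and its arms came at nearly equal levels. miR-434-5p held 2063 and 2377 in KO hypoxia, 1667 and 2133 in KO normoxia, 610 and 1430 in WT hypoxia, and 572 and 1130 in WT normoxia. All 4 KO libraries are above all 4 WT libraries, with log2 differences of KO minus WT of 1.24 (SE 0.44) in hypoxia and 1.23 (SE 0.44) in normoxia. miR-434-3p held 1533 and 2291 in KO hypoxia, 1426 and 2102 in KO normoxia, 518 and 1458 in WT hypoxia, and 550 and 1138 in WT normoxia. WT hypoxia number 2 (1458) reaches just past the lowest KO library (1426), so the genotypes touch. Its differences were 1.11 (SE 0.51) in hypoxia and 1.13 (SE 0.51) in normoxia.

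The remaining microRNAs opposite Rtl1 were lower. miR-433-3p held 340 and 387 in KO hypoxia, 241 and 264 in KO normoxia, 103 and 204 in WT hypoxia, and 115 and 227 in WT normoxia. Every KO library is above every WT library, by little where WT normoxia number 2 (227) meets KO normoxia number 1 (241). Its log2 difference of KO minus WT was 1.32 (SE 0.41) in hypoxia and 0.64 (SE 0.41) in normoxia. miR-431-5p, known in mouse muscle progenitors for targeting Pax7, held 173 and 235 in KO hypoxia, 187 and 174 in KO normoxia, 73 and 111 in WT hypoxia, and 78 and 138 in WT normoxia. Again the genotypes do not overlap, and the differences were 1.15 (SE 0.37) in hypoxia and 0.79 (SE 0.37) in normoxia. miR-136-5p, whose site is at the start of the Rtl1 coding sequence, held 113 and 99 in KO hypoxia, 116 and 95 in KO normoxia, 22 and 77 in WT hypoxia, and 51 and 89 in WT normoxia. WT hypoxia number 1, at 22, is far below the other 7 libraries. Differences were 1.33 (SE 0.54) in hypoxia and 0.63 (SE 0.54) in normoxia.

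Between Meg3 and Rtl1, miR-337 was the second hairpin by level. miR-337-3p held 2926 and 2802 in KO hypoxia, 2284 and 1716 in KO normoxia, 957 and 1911 in WT hypoxia, and 928 and 1462 in WT normoxia. Here the genotypes overlap, since WT hypoxia number 2 exceeds KO normoxia number 2. Log2 differences of KO minus WT were 1.08 (SE 0.37) in hypoxia and 0.76 (SE 0.37) in normoxia. miR-337-5p held 944 and 1833 in KO hypoxia, 1309 and 1449 in KO normoxia, 602 and 1033 in WT hypoxia, and 578 and 751 in WT normoxia. The arms of this hairpin did not keep step in KO hypoxia, where number 1 is the higher library for the 3p arm and by far the lower for the 5p arm. The 5p differences were 0.74 (SE 0.38) in hypoxia and 1.06 (SE 0.38) in normoxia.

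The next hairpins, Mir540 and Mir665, held the member of the 11 with the widest genotype gap in hypoxia, miR-540-5p, and the one with the widest gap in normoxia, miR-665-3p. miR-540-5p held 638 and 375 in KO hypoxia, 498 and 332 in KO normoxia, 117 and 146 in WT hypoxia, and 178 and 227 in WT normoxia. It was higher in number 1 than in number 2 of both KO groups and the reverse in both WT groups. Its log2 difference of KO minus WT was 1.90 (SE 0.35) in hypoxia, or 3.72-fold, and 1.01 (SE 0.35) in normoxia. miR-665-3p held 285 and 256 in KO hypoxia, 214 and 159 in KO normoxia, 75 and 135 in WT hypoxia, and 48 and 94 in WT normoxia. The lowest KO library (159) is above the highest WT library (135), with differences of 1.42 (SE 0.41) in hypoxia and 1.44 (SE 0.41) in normoxia.

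The other 8 features had means under 50. miR-673-5p, from the first hairpin after Meg3, held 56 to 62 in KO and 15 to 42 in WT libraries. miR-433-5p held 54 to 72 in KO and 23 to 39 in WT libraries, miR-136-3p 50 to 59 and 14 to 54, miR-540-3p 15 to 31 and 4 to 11. miR-770-3p, from inside Meg3, held 26 and 32 in KO hypoxia, 13 and 18 in KO normoxia, 11 and 12 in WT hypoxia, and 5 and 9 in WT normoxia. Of these 5, miR-136-3p is the 1 whose genotypes overlap. The minor arms miR-431-3p (1 to 10 over all libraries), miR-770-5p (1 to 4) and miR-673-3p (1 to 6) were under 10 in all but at most 1 library and were not tested.

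The order of the levels held in part over the libraries. miR-127-3p was above miR-337-3p in 8 of 8 libraries, and miR-337-3p above miR-434-5p in 7, miR-434-5p above miR-434-3p in 6, and miR-434-3p above miR-337-5p in 6. miR-337-5p exceeded miR-127-5p in 7 libraries, and miR-127-5p exceeded miR-540-5p in 8. Further down, miR-540-5p was above miR-433-3p in 5 libraries, miR-433-3p above miR-665-3p in 8, miR-665-3p above miR-431-5p in 5, and miR-431-5p above miR-136-5p in 8. Neighbours that changed places between libraries cannot be ranked, which leaves 4 steps that held in all 8 libraries. Counts of different microRNAs also carry ligation and sequence effects, which were not measured.

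Of the 19 features, 16 held at least 10 in at least 2 libraries and were tested. A feature that is high in 1 group alone can pass this filter through that group, so counts over the 16 describe those that passed. limma was fitted to log2(normalized count + 1) over all 1540 features that passed, and p-values were adjusted over these by Benjamini-Hochberg, with a threshold of 0.05. Of the 16, 16 were higher in KO than in WT in hypoxia, with a median log2 difference of 1.20 (0.74 to 1.90), and 16 in normoxia, with a median of 1.07 (0.63 to 1.60). The median over all features tested was −0.04 in hypoxia and −0.06 in normoxia, and over the 579 microRNAs −0.05 and −0.28. In hypoxia 0 of the 16 passed the adjusted threshold, where 0.13% of all features did, and in normoxia 0 passed, where 0.0649% did (limma). All of those calls were lower in KO, and 0% of all features passed as higher in KO at either oxygen level. At an unadjusted p under 0.05 there were 12 of 16 in hypoxia, against 139 of 1540 features, and 8 of 16 in normoxia, against 207 of 1540. The genotype contrast was known when the members were chosen, so none of these counts is read further.

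In 12 of the 16, all 4 KO libraries were above all 4 WT libraries, where 8.38% of all features show this, and in 0 of the 16 were all 4 KO libraries below (3.51% of all features). The 4 exceptions among the members are miR-337-3p, miR-337-5p, miR-434-3p and miR-136-3p. Of the 62 other microRNAs of the domain that were tested, 35 also had all 4 KO above all 4 WT libraries. Within an oxygen level, the KO pair was above the WT pair for 15 of 16 members in hypoxia (19.2% of all features) and 15 of 16 in normoxia (21.9%). All of these counts fall in the genotype contrast and are descriptive.

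**Figure D2:**
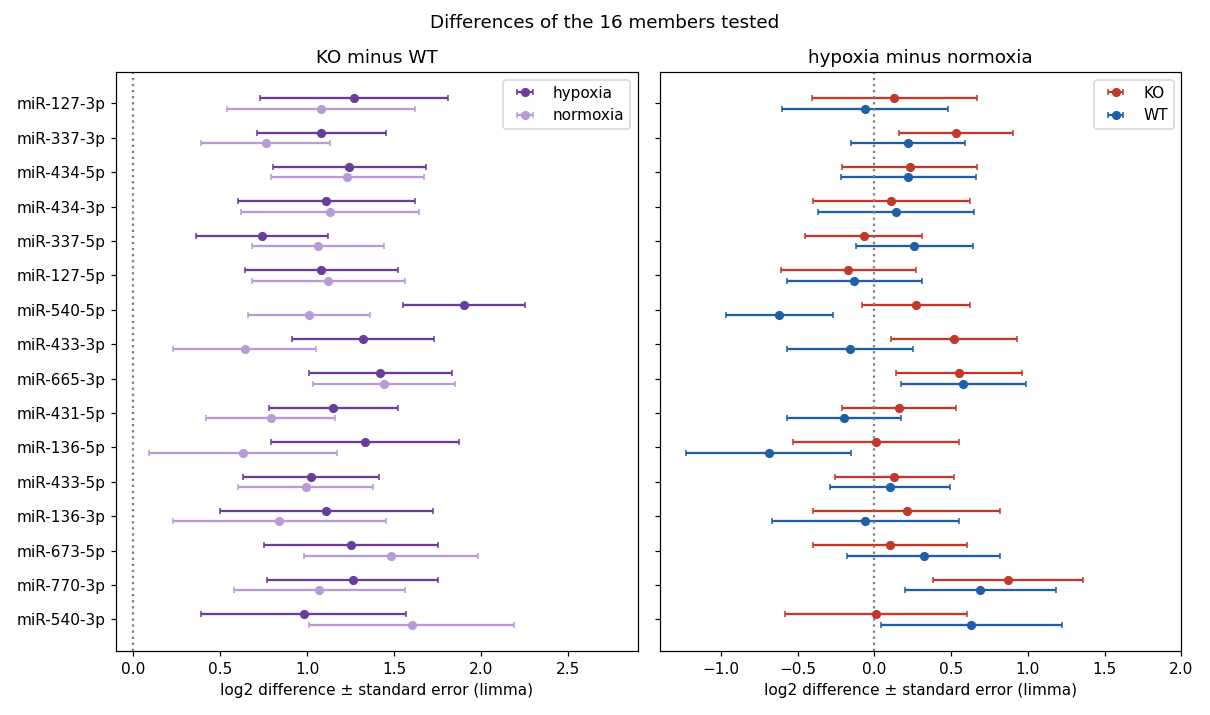
Log2 differences with standard errors of the limma fit for the 16 members tested, in order of their mean. KO minus WT is on the left, where all values are above 0 and range from 0.63 to 1.90; hypoxia minus normoxia is on the right, where the values lie on both sides of 0, from −0.69 to 0.87.

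The size of the genotype difference depended on the library number, and the WT libraries carried that dependence. Between number 2 and number 1 of WT hypoxia the median log2 difference over the 16 members was 0.99, with 16 of 16 higher in number 2, and of WT normoxia 0.83, again with 16 of 16. The KO libraries of a group differed by a median of 0.08 in hypoxia and 0.02 in normoxia, with 8 of 16 higher in number 2 each time. Over all microRNAs tested the same difference was 0.39 in WT hypoxia, 0.22 in WT normoxia, 0.18 in KO hypoxia and 0.05 in KO normoxia. Over all features tested it was 0.02, 0.03, −0.01 and 0 in the same order of groups. The share of all features higher in number 2 was 51%, 52.3%, 48.3% and 48.8% in that order. The gap between the WT libraries of a group was thus nearly as large as the gap between genotypes.

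KO minus WT had a median of 1.73 within number 1 and 0.71 within number 2 in hypoxia, and of 1.34 and 0.73 in normoxia. Within number 2, where the gap is narrower, 16 of 16 members were still higher in KO in hypoxia and 15 of 16 in normoxia, the exception being miR-136-3p (−0.11). Without WT hypoxia number 1 the median in hypoxia was 0.61, and without WT normoxia number 1 the median in normoxia was 0.66. The labels do not say what the numbers stand for, so library number is given here as a name and not as a batch. Total counts were lower in number 1 than in number 2 of every group, for example 9928948 and 12167438 in WT hypoxia, and their part in the difference was not tested.

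**Figure D3:**
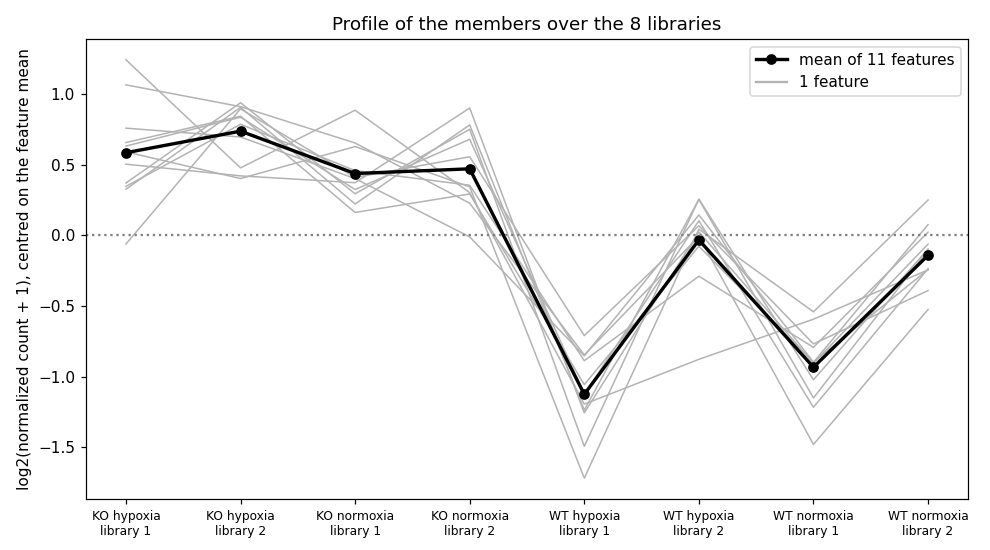
Log2(normalized count + 1) of the 11 members with a mean of at least 50, each centred on its own mean over the 8 libraries (grey lines), with their mean (black). The KO libraries sit between 0.44 and 0.74, the WT number 2 libraries at −0.03 and −0.14, and the WT number 1 libraries at −1.12 and −0.93.

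Hypoxia was compared with normoxia within each genotype. The hairpins were not put forward for this contrast, but earlier results of these data were known when they were chosen. In KO cells 14 of 16 members were higher and 2 lower in hypoxia, with a median log2 difference of 0.15. The median was 0.24 over all microRNAs tested, of which 75.5% were higher, and 0.02 over all features, of which 52.4% were higher. In WT cells 9 were higher and 7 lower, with a median of 0.12, against 0.00 over all microRNAs and 0.02 over all features. No member passed in either genotype (limma, 0 of 16, with 0 at an unadjusted p under 0.05), and 0% of all features passed in KO and 0% in WT. miR-210-3p did not pass in WT either, with 36738 and 39011 in WT hypoxia against 4786 and 8676 in WT normoxia. The lowest adjusted p over all features was 0.235 in WT (limma), so the test could miss a change as large as that. The lowest adjusted p among the members was 0.817 in KO and 1.00 in WT. The standard errors, 0.35 to 0.61 on the log2 scale, leave room for changes of this order in either direction.

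The largest positive hypoxia difference in both genotypes was that of miR-770-3p, 0.87 (SE 0.49) in KO and 0.69 (SE 0.49) in WT, at counts of 5 to 32. miR-540-3p, also at low counts, stood at 0.01 (SE 0.59) in KO and 0.63 (SE 0.59) in WT. miR-665-3p stood at 0.55 (SE 0.41) in KO and 0.58 (SE 0.41) in WT, and was higher in hypoxia within both numbers of both genotypes. miR-337-3p stood at 0.53 (SE 0.37) in KO and 0.22 (SE 0.37) in WT. The most abundant member, miR-127-3p, gave 0.13 (SE 0.54) in KO and −0.06 (SE 0.54) in WT. Its KO value turned negative on the microRNA total (−0.01) and with quantiles made equal (−0.02), and lay between −0.15 and 0.42 with 1 library left out. Groups did not overlap for 6 of 16 members in KO, all higher in hypoxia, where 15.8% of all features show this and 13.1% the reverse, and for 1 higher (14.4%) and 1 lower (11.4%) in WT.

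The interaction, the hypoxia change in KO minus that in WT, had a median of 0.11 over the 16 members, 10 of them positive, against 0.25 over all microRNAs tested and 0.02 over all features. No member passed (limma, 0 of 16, with 0 at an unadjusted p under 0.05), and 0% of all features did. Values ran from −0.62 for miR-540-3p to 0.88 for miR-540-5p (SE 0.50), the opposite arms of 1 hairpin. Every adjusted p was 1.00.

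The arms of a hairpin are cut from the same precursor, so they are not independent members. The arm ratio of the abundant hairpins moved less over the 8 libraries than the levels did. For miR-127 the log2 ratio of 3p to 5p ran from 3.08 to 3.84, a range of 0.76, while the arms themselves ranged over 2.43 and 2.16. It was 3.36 ± 0.32 in KO and 3.28 ± 0.20 in WT libraries (SD, n = 4 each). For miR-434 the ratio ran from −0.43 to 0.03 with arm ranges of 2.14 and 2.05, and averaged −0.18 ± 0.19 in KO and −0.06 ± 0.12 in WT libraries (SD, n = 4 each). The differences between genotypes in both ratios are smaller than the spread between libraries.

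The ratio of miR-337 varied more, from 0.24 to 1.63, with the highest value in KO hypoxia number 1 and the lowest in KO normoxia number 2. It averaged 0.82 ± 0.59 in KO and 0.80 ± 0.15 in WT libraries (SD, n = 4 each). For miR-433 the ratio was 2.24 ± 0.30 in KO and 2.26 ± 0.30 in WT libraries (SD, n = 4 each). Summed over all libraries, the 3p arm gave 91.1% of the counts of miR-127, 83.1% of miR-433, 63.8% of miR-337, 47.9% of miR-434 and 34.2% of miR-136. The 5p arm was dominant in miR-673, miR-540 and miR-431, where the 3p arm gave 5.35%, 4.74% and 2.42%. miR-770 was the hairpin with the widest arm ratio, 2.92 ± 0.52 in KO and 1.39 ± 1.00 in WT libraries (SD, n = 4 each), but its 5p arm held 20 counts over all 8 libraries, and the difference depends on the pseudocount at such counts.

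**Figure D4:**
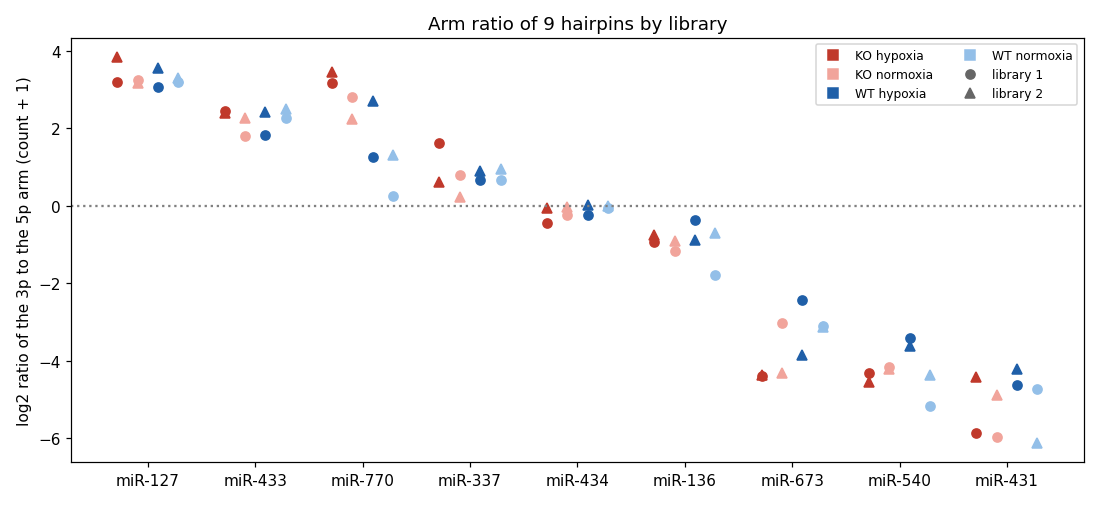
Log2 ratio of the 3p to the 5p arm (each count + 1) for the 9 hairpins with both arms listed, by library, with KO hypoxia, KO normoxia, WT hypoxia and WT normoxia from left to right. miR-127 stays between 3.08 and 3.84 and miR-434 between −0.43 and 0.03, whereas the hairpins with a rare arm, such as miR-770 from 0.26 to 3.46, scatter widely.

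The other microRNAs of the domain were also higher in KO. A list of 72 other microRNA features of the domain, of which 62 were tested, had a median log2 difference of KO minus WT of 1.21 in hypoxia, with 61 of 62 higher, and of 0.90 in normoxia, with 58 of 62 higher. None of the 62 passed the adjusted threshold in any contrast (limma, with 44 at an unadjusted p under 0.05 in hypoxia and 25 in normoxia). Whether the members differ from these was not tested. The most abundant of them, miR-379-5p, the first microRNA of the downstream cluster, held 4358 and 7174 in KO hypoxia, 4202 and 4979 in KO normoxia, 2111 and 3758 in WT hypoxia, and 1742 and 3126 in WT normoxia. The sum of the members divided by the sum of this list was 0.719 and 0.796 in KO hypoxia, 0.776 and 1.01 in KO normoxia, 0.633 and 0.847 in WT hypoxia, and 0.789 and 0.846 in WT normoxia. The genotypes overlap in this ratio, while the members' sum itself does not overlap between them. The split of WT libraries by number was also seen in the list, with medians for number 2 minus number 1 of 0.91 in WT hypoxia and 0.70 in WT normoxia, against 0.13 in KO hypoxia and −0.02 in KO normoxia.

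**Figure D5:**
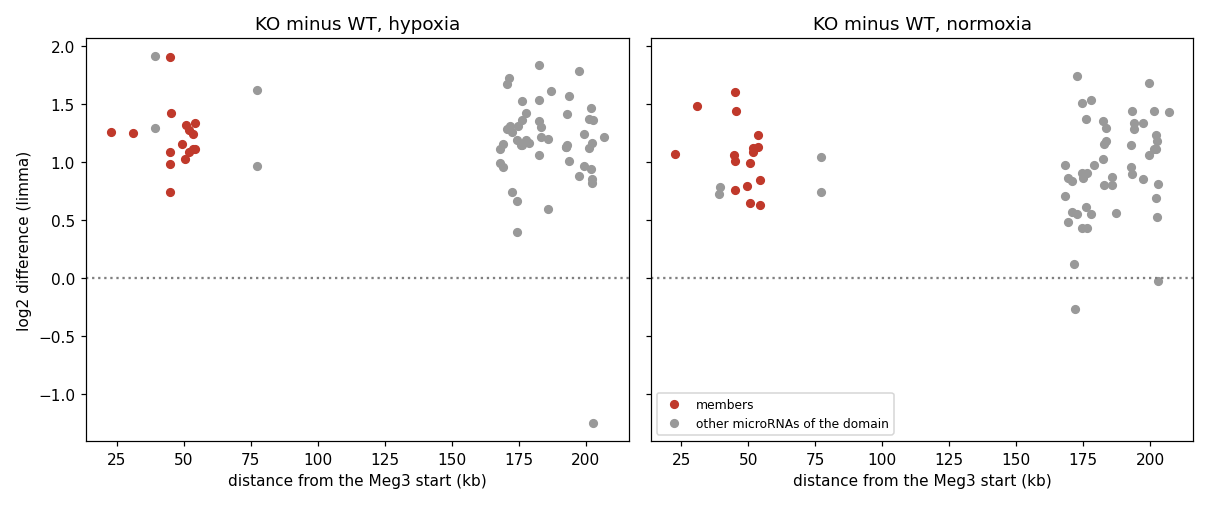
Log2 difference of KO minus WT against the distance from the annotated start of Meg3, in hypoxia (left) and normoxia (right), for tested members (red) and other tested microRNAs of the domain with a single RefSeq position (grey; miR-1247-5p, 737 kb away, is not drawn). The members, 22.7 to 54.4 kb from the start, lie from 0.63 to 1.90 and overlap the spread of the distant cluster.

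The features whose profile lay closest to that of the members were searched among all 1540. The measure was the root mean square distance, over the 8 libraries, of the centred log2 values from the mean profile of the 11 members. Of the 40 closest features, 10 were members, 22 were on the list of other domain microRNAs, 1 was a microRNA outside both lists, and 7 were features that the table classes as small nucleolar RNAs (distances from 0.165 to 0.294). That microRNA was miR-218-5p (distance 0.275, rank 33), encoded in the Slit genes, with 9013 and 10046 in KO hypoxia, 5928 and 8909 in KO normoxia, 3868 and 5982 in WT hypoxia, and 4261 and 5430 in WT normoxia. Next came miR-299b-5p (0.370), whose hairpin also lies on chromosome 12 in the domain but carries a name the list did not hold. They were followed by miR-181a-1-3p (0.373), miR-196b-5p (0.439) and miR-100-5p (0.443). Members ranged from 0.148 for miR-434-5p to 0.496 for miR-540-3p. Whether the 7 small nucleolar RNAs lie in the domain was not examined. The 11 features are part of the mean they are compared with, and likeness of profile says nothing of shared control.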

How the data were processed

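The deposited table holds 1 whole-number value per small RNA feature and library. The authors' values are a score, a read count normalized and rounded, per the labels and the name of the table. Per the labels' protocols, total RNA came from a miRNeasy extraction and the library kit was NEB's small RNA one for SOLiD. The sources used here do not give the aligner, the build, the normalization method or how multiply matching reads were counted. Positions and sequences were taken from RefSeq (GRCm38.p6) and gene models from GENCODE M21.

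Since the values are not raw counts, limma 3.58.1 (R 4.3.3), with its trend option, modelled log2(value + 1) by 4 group means, 4 residual and 5.64 prior degrees of freedom. Features with at least 10 in at least 2 libraries were tested, 1540 in all, and the fit was tested on simulated data. Means are given with SD, differences with the standard error of the fit. Fold changes on this scale understate the change of low features. A count of 0 allows a share of up to 2.47e-05% to 3.48e-05% (3 counts over the total), for counting error only. The members and lists were chosen with earlier results of these data known. Features with a mean of at least 50 were described in every library. The other domain microRNAs of highest mean, the 5 nearest profiles outside both lists and miR-210 were named by rule. The rule also gave miR-299-5p, miR-411-3p and miR-134-5p. miR-493 and miR-410-5p were named after their values were seen.

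Alternatives were another pseudocount (8 or 0.5), a mean of at least 50 or no filter on low values, a trimmed mean of M values (TMM, from its formula), quantile normalization, scaling to the microRNA total, no trend, the replicate number as a block, the groups of a contrast alone, and leaving out each library.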

Additional observations from a re-analysis of the deposited data

Results flagged for a closer look

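For 2 members, KO was higher and WT lower in hypoxia than in normoxia within both library numbers. For miR-540-5p the log2 difference of hypoxia minus normoxia was 0.36 and 0.18 in KO and −0.60 and −0.63 in WT (numbers 1 and 2), and the KO minus the WT difference was 0.88 (SE 0.50, limma adjusted p = 1.00, adjusted p from 0.633 to 1.00 over the alternatives). For miR-433-3p it was 0.49 and 0.55 in KO and −0.16 and −0.15 in WT, and the KO minus the WT difference was 0.68 (SE 0.58, limma adjusted p = 1.00, adjusted p from 0.884 to 1.00 over the alternatives). The test of the difference passed for neither. The share of all features that show this pattern was not counted, so it is not read as a trait of these 2 members. For miR-540-5p the KO value was −0.03 without KO normoxia number 2 and −0.12 without KO hypoxia number 1. For miR-433-3p the WT value was 0.33 without WT normoxia number 2 and 0.33 without WT hypoxia number 1.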

How the results depend on the processing

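No member passed in any contrast under any alternative run, with 11 members counted under a mean of at least 50 and 16 elsewhere. Over all features, oxygen in WT gave 8 calls with the replicate block, 1 with a pseudocount of 8 and 1 with a mean of at least 50, against 0 without them. With 1 library of each number per group, the block cannot move a difference (the genotype median in hypoxia is 1.20 by construction). It moved adjusted p (limma), for example to 0.0933 from 0.189 for miR-540-5p in the genotype contrast in hypoxia and to 0.119 from 0.324 for miR-434-5p in normoxia. The numbers were not treated as pairs. Deviations by number correlated between groups with r from 0.151 to 0.551 over all features tested, but the labels do not say that a number marks a shared culture or day. The genotype medians stayed positive, from 1.00 to 1.30 in normoxia and 1.09 to 1.35 in hypoxia over the alternatives that keep all libraries, and from 0.66 to 1.49 and 0.61 to 1.77 when 1 library was left out. Of the alternative values of the 11 described members, 0 of 198 turned sign in each genotype contrast, 18 of 198 for oxygen in KO, 16 of 198 for oxygen in WT and 28 of 187 for the interaction. The oxygen median in KO was 0.11 with TMM, 0.10 with equal quantiles and 0.00 when scaled to the microRNA total, where the median of all features was −0.13, and ran from 0.12 to 0.36 with 1 library left out. The same range was −0.45 to 0.67 for oxygen in WT and −0.40 to 0.65 for the interaction, so single WT libraries turn the sign of both medians. The oxygen median in WT was also negative, −0.06, with a mean of at least 50 and all libraries kept. The interaction median was 0.09 with a pseudocount of 0.5, 0.19 with a mean of at least 50, 0.08 with TMM, 0.08 with equal quantiles and 0.02 when scaled to the microRNA total. Scaled to that total, the median of all features was 0.17 for genotype in normoxia and 0.11 in hypoxia, and the member medians were 1.30 and 1.35. Low counts limit miR-770, miR-673 and the minor arms, and 2 libraries per group limit every comparison.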

Other observations

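miR-493, whose hairpin lies between Mir673 and Mir337 and whose name is not among the 10, held 93 and 80 on its 5p arm in KO hypoxia, 99 and 31 in KO normoxia, 50 and 24 in WT hypoxia, and 36 and 31 in WT normoxia. KO normoxia number 2 matched WT normoxia number 2 there, so the genotypes overlap. Among the other domain microRNAs of highest mean, miR-299-5p had log2 differences of KO minus WT of 1.01 (SE 0.37) in hypoxia and 0.57 (SE 0.37) in normoxia. miR-411-3p gave 1.15 (SE 0.44) in hypoxia and 0.48 (SE 0.44) in normoxia, with 867 in KO normoxia number 2 against 1755 in number 1. miR-134-5p gave 1.41 (SE 0.41) in hypoxia and 1.44 (SE 0.41) in normoxia. The single domain microRNA lower in KO than in WT in hypoxia was miR-410-5p, with 9 and 5 in KO hypoxia and 12 and 25 in WT hypoxia, a log2 difference of −1.25.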
